A study of Mus musculus with 39 samples.

Results

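The gubernaculum of wild-type (WT) mice at postnatal day 8 (P8) was compared with the testis of WT mice of the same age, to show which genes set the normal gubernaculum apart from the organ it is attached to. The members were taken by their labels, 3 gubernaculum libraries and 3 testis libraries of the 39 RNA-seq libraries of the series. The comparison, the gene lists and the rules were chosen with earlier results of these data known. All came from untreated male mice on the C57BL/6J background, with no engineered allele in the WT animals. The series was made to study how a cetacean form of insulin-like factor 3 (INSL3) affects descent of the testis, and its other libraries come from INSL3 knock-in (INSL3-KI) mice, in which the cetacean coding sequence stands in place of the mouse one under the mouse promoter, from INSL3 knockout mice, and from later ages. The 6 libraries from INSL3-KI mice at P8, 3 of each tissue, were used only to see whether the tissue difference was also found in other animals. The labels call the 3 libraries of a group biological replicates and give neither the number of animals in a library nor a link between a gubernaculum and a testis, so p-values measure the spread between these samples.

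The gubernaculum is a cord of connective tissue and muscle that anchors the testis to the inguinal region and guides its descent into the scrotum. It starts as mesenchyme, and in rodents its wall becomes the striated cremaster muscle. INSL3, a peptide hormone made by Leydig cells of the testis, acts on the gubernaculum through the receptor RXFP2, a G protein-coupled receptor that raises cyclic AMP. Androgens and calcitonin gene-related peptide (CGRP), released by the genitofemoral nerve, have been tied to the later, inguinoscrotal step of descent. The testis in the days after birth holds Sertoli cells, Leydig cells, peritubular myoid cells and germ cells that are spermatogonia, before spermatids form.

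Each library held between 35014761 and 39398483 counts, of which between 1.89% and 4.69% fell in loci outside the annotation, the higher shares in gubernaculum. Of 22036 annotated genes, between 16307 and 17694 were detected in a library. Log-scale values of libraries of the same tissue correlated at 0.964 to 0.980 in gubernaculum and 0.959 to 0.981 in testis across genes, and libraries of different tissues at 0.721 to 0.782. Levels are given as CPM, the counts of a gene relative to the total of the annotated genes, scaled by edgeR's TMM factors, always in the order of replicates 1, 2 and 3. These factors were 0.853 to 0.871 in gubernaculum and 1.15 to 1.17 in testis. With them the tissue difference of the median gene was 0.01 on the log2 scale, and with library totals alone it was -0.42, so that each difference below would be lower by about that amount on the other scale. The tissue labels held against their defining markers, since skeletal muscle genes were high in the 3 gubernaculum libraries alone and the defining Sertoli cell, Leydig cell and spermatogonial genes were high in the 3 testis libraries alone. Spermatid genes, described below, summed higher in gubernaculum.

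Differences are log2 fold changes, gubernaculum minus testis. The standard error (SE) beside each is approximate, the absolute log2 fold change divided by the square root of the test's F statistic. A gene was called when the p-value of edgeR's quasi-likelihood test, adjusted over all genes by the Benjamini-Hochberg method, was under 0.01 and the fold change was at least 2. Of 15746 genes tested, 2211 were called higher in gubernaculum (14.0%) and 2236 higher in testis (14.2%), together 28.2%. These shares are the background for the counts of called genes in each list below. At an adjusted p under 0.01, with no limit on the fold, 6859 genes passed. The difference was at least 64-fold for 239 genes called higher in gubernaculum and for 311 called higher in testis. Scaled by library totals alone, the calls were 1489 and 3642, of which 29.0% were higher in gubernaculum, against 49.7% with TMM. Those numbers, of 15746 genes, are the background for list counts given with library totals alone. In bulk tissue, fewer cells of a type and less RNA per cell cannot be told apart, and this holds for every level below.

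**Figure D1:**
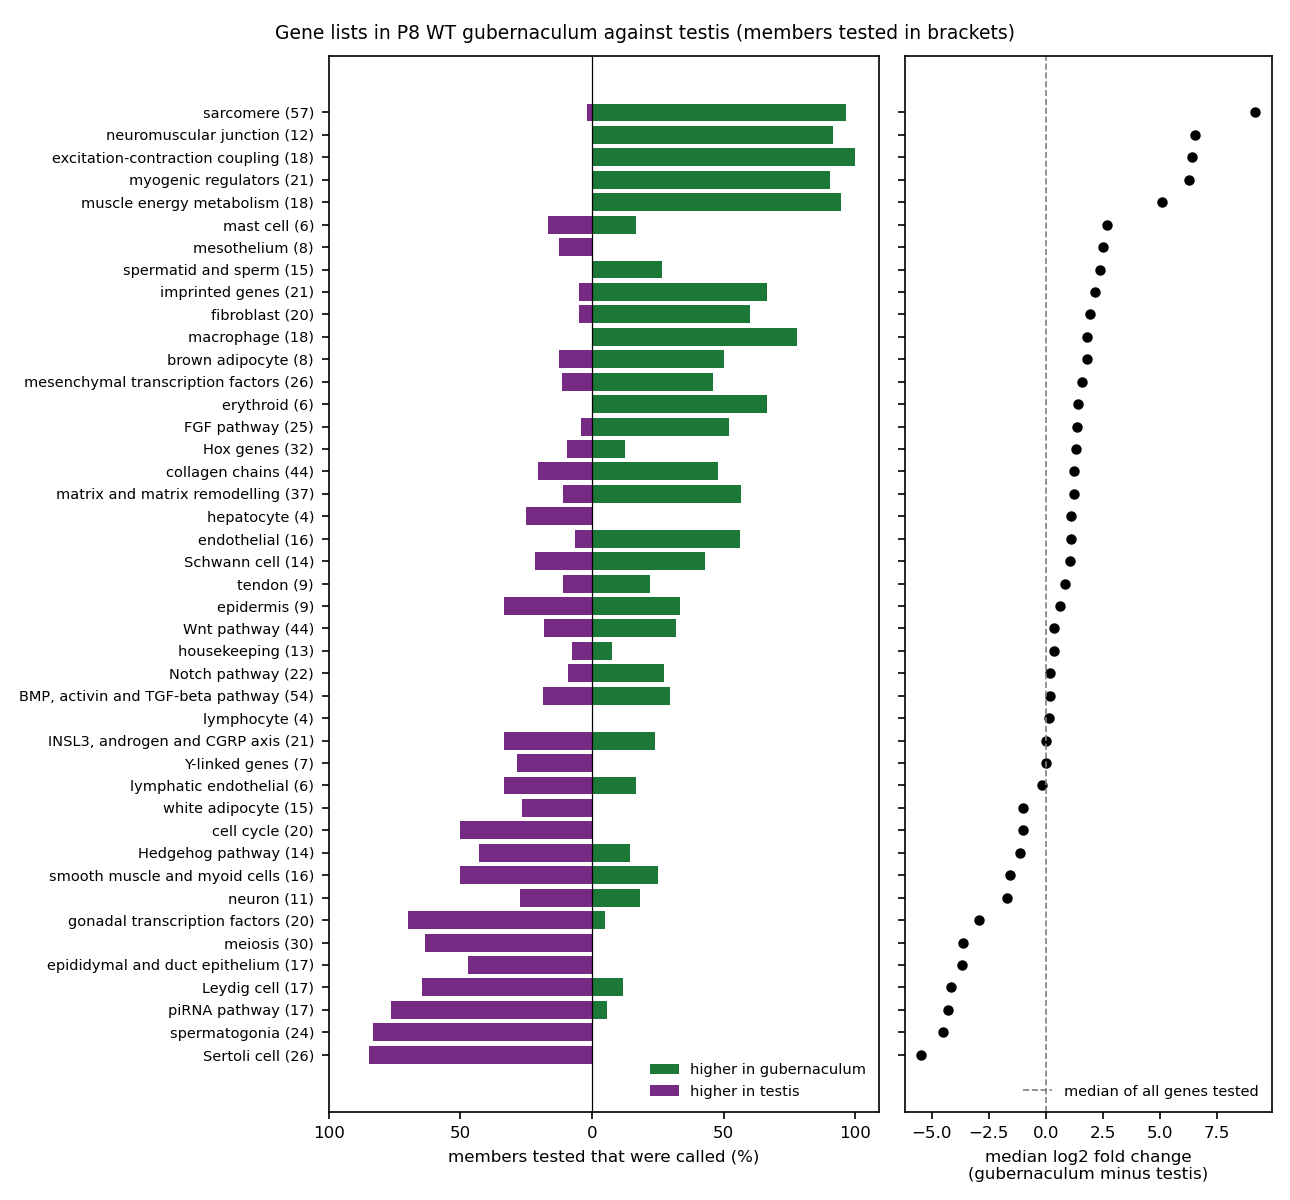
The left panel plots the percentage of the tested members of each gene list that were called higher in gubernaculum (green, to the right) or in testis (purple, to the left), and the right panel the median of the log2 fold changes in the list, with that over all genes tested as a dashed line. The 5 skeletal muscle lists stand at the top, with medians from 5.07 to 9.17, and the Sertoli cell, spermatogonia and piRNA lists at the bottom, with medians from -5.45 to -4.28.

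The promoters of 6 genes show the sequence next to the start of the hormone gene, of its receptor gene and of 4 highly expressed muscle genes chosen for their motif matches, since both tissues read the same genome and use it differently. Each is the stretch of 250 bases before the start of the gene in RefSeq, GRCm38.p6 build, written 5′ to 3′ on the strand of the gene, with matches to motifs in capitals. The gene positions given below for Insl3 and Acta1 start at other bases, and motif distances are counted from the RefSeq start. The motifs were the E-box CAGCTG, bound by myogenic regulators, the MEF2 site and the CArG box, bound by MEF2 proteins and by serum response factor, and CAAGGTCA, bound by steroidogenic factor 1, each searched on both strands. Insl3 is on the plus strand at chr8:71689002-71689251, Rxfp2 on the plus strand at chr5:150018425-150018674, and Acta1 on the minus strand at chr8:123894776-123895025. Myh8 is on the plus strand at chr11:67276874-67277123, Pgam2 on the minus strand at chr11:5803797-5804046, and Myoz2 on the minus strand at chr3:123034988-123035237.
Insl3: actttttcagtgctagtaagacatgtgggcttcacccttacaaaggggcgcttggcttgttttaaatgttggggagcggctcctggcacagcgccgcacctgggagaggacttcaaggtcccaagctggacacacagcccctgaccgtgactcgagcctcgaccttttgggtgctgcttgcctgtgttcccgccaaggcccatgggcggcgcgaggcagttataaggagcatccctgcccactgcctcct
Rxfp2: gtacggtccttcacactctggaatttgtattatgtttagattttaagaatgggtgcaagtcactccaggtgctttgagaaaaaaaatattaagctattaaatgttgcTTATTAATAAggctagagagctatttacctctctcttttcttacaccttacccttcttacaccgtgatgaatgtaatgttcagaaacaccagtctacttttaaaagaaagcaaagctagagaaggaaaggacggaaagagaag
Acta1: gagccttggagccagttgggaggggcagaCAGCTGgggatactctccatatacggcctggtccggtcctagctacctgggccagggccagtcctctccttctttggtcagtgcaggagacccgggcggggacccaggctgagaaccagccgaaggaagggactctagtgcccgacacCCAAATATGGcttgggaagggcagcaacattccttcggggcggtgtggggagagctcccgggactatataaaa
Myh8: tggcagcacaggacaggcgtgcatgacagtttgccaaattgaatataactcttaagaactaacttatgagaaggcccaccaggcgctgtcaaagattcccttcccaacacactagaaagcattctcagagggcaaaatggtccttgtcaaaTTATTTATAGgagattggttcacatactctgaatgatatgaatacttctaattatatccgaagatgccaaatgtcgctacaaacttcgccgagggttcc
Pgam2: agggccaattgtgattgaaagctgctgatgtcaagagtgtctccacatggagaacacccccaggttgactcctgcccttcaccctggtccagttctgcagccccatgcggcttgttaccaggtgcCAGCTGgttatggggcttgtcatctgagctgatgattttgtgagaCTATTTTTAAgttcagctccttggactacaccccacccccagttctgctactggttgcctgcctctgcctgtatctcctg
Myoz2: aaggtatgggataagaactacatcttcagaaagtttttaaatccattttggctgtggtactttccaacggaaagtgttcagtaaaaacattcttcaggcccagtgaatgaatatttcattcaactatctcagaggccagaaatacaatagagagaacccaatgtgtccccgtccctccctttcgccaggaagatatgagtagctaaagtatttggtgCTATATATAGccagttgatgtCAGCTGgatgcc
The stretch before Insl3 holds none of the 4 motifs, and the one before Rxfp2 holds a MEF2 site 143 bases before the start. Acta1, the skeletal muscle actin gene, has an E-box 221 bases and a CArG box 73 bases before the start. Myh8, the perinatal myosin heavy chain gene, has a MEF2 site at 99 bases, Pgam2, a muscle form of a glycolytic enzyme, has an E-box at 125 and a MEF2 site at 80 bases, and Myoz2, a Z-disc protein gene, has an E-box at 12 and a MEF2 site at 33 bases.

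Of the 120 genes of the 5 muscle lists described below that were called higher in gubernaculum, 85 had a promoter in the table. CAGCTG stood in 32 of these (37.6%), the MEF2 site in 11 (12.9%), the CArG box in 6 (7.06%) and CAAGGTCA in 1 (1.18%). Over the promoters of all 27025 genes the shares were 14.7%, 3.42%, 1.62% and 1.51%. Over the 1638 promoters of all genes called higher in gubernaculum they were 21.7%, 4.58%, 2.50% and 1.16%. Among the 18 genes of the Sertoli and Leydig cell lists that were called higher in testis and had a promoter, 2 held CAGCTG (11.1%) and none held the other 3 motifs. Among 41 such genes of the spermatogonia, piRNA and meiosis lists, 8 held CAGCTG (19.5%) and none held the others. A match describes the letters in these stretches, and no match says only that the letters are not in this window.

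The hormone and its receptor stood on opposite sides of the comparison. Insl3 (ENSMUSG00000079019, chromosome 8, 71689214 to 71690575, plus strand, GRCm38) had 2.92, 0.803 and 0.984 CPM in gubernaculum and 72.9, 78.7 and 63.4 in testis. Every testis library was far above every gubernaculum library, a log2 fold change of -5.51 (SE 0.45, edgeR adjusted p = 6.06e-05). Rxfp2 (ENSMUSG00000053368, chromosome 5, 150018675 to 150082184, plus strand) had 41.6, 52.8 and 47.6 CPM in gubernaculum and 0.349, 1.03 and 1.77 in testis. The order was the reverse of that of Insl3 and the tissues did not overlap, a log2 fold change of 5.48 (SE 0.48, edgeR adjusted p = 8.53e-05). Rxfp1, the receptor of relaxin, had 0.570, 2.83 and 1.56 CPM in gubernaculum and 0.199, 0.558 and 0.745 in testis, levels that overlapped and did not pass the test (a log2 fold change of 1.71 (SE 0.72, edgeR adjusted p = 0.0748)).

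Of the 21 tested genes of the list of INSL3, androgen and CGRP signalling, 5 were called higher in gubernaculum and 7 higher in testis, with a median of 0.01 beside 0.01 for all genes (-0.41 with library totals alone). Esr1, the gene of oestrogen receptor alpha, had 113, 128 and 86.2 CPM in gubernaculum and 21.3, 26.8 and 36.1 in testis, a log2 fold change of 1.96 (SE 0.23, edgeR adjusted p = 0.00031). Esr2, the gene of oestrogen receptor beta, had no count in any gubernaculum library and 2.77, 4.15 and 2.93 CPM in testis, at least 33-fold higher in testis at a floor of 3 counts per library. The oestrogen receptor genes thus differed in opposite directions. Srd5a2, whose enzyme turns testosterone into dihydrotestosterone, had no count in gubernaculum and 0.324, 0.469 and 0.442 CPM in testis, at least 4.14-fold higher in testis.

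The gene of the CGRP receptor subunit RAMP1 had 133, 109 and 104 CPM in gubernaculum and 4.24, 6.61 and 12.7 in testis, a log2 fold change of 3.88 (SE 0.39, edgeR adjusted p = 0.00016). Its partner Calcrl had 28.6, 31.9 and 36 CPM in gubernaculum and 8.23, 12.7 and 17.3 in testis, a log2 fold change of 1.33 (SE 0.26, edgeR adjusted p = 0.00379). The 2 parts of the CGRP receptor were thus both higher in gubernaculum, without overlap, although Calcrl was not called without gubernaculum replicate 2 or 3 or testis replicate 2 (edgeR adjusted p up to 0.0176). Calca, which encodes CGRP itself, was close to the limit of detection in both tissues, at 1.14, 0.289 and 0.407 and 0.0997, 0.424 and 0.279 CPM. Gnas, which encodes the G protein alpha subunit that couples such receptors to cyclic AMP, had 4667, 3765 and 3790 CPM in gubernaculum and 1039, 1235 and 1396 in testis, a log2 fold change of 1.74 (SE 0.16, edgeR adjusted p = 0.000109). The receptors of the pituitary hormones were the reverse. Lhcgr, the luteinizing hormone receptor gene of Leydig cells, had 0.603, 0.257 and 0.339 CPM in gubernaculum and 23.1, 24.2 and 25 in testis, and Fshr, the follicle-stimulating hormone receptor gene of Sertoli cells, had 0.302, 0.128 and 0 and 33.8, 37.7 and 30.4. Amh and its receptor gene Amhr2, of the anti-Müllerian hormone system, were higher in testis by 415-fold and 63.2-fold. Among the other members tested, Rln1, Pgr, Srd5a1, Ramp2, Ramp3 and Adm were not called.

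**Figure D2:**
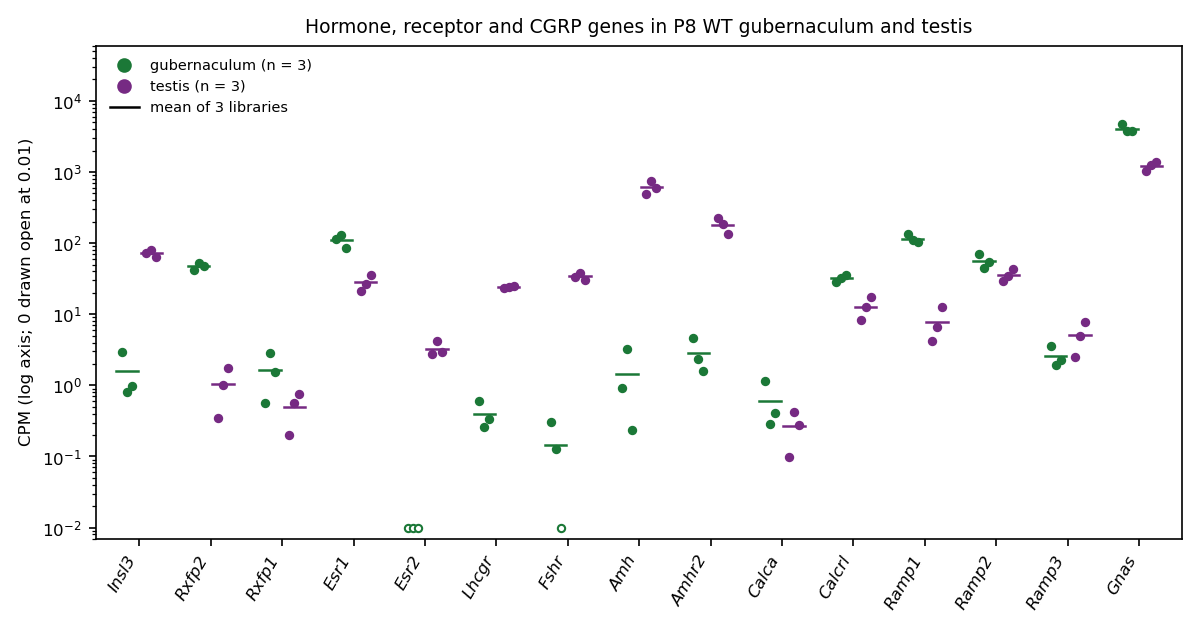
Each point is the level of a gene in 1 library in CPM on a log axis, green for gubernaculum and purple for testis, with the mean of 3 libraries as a line and libraries with no count drawn as open points at 0.01. Insl3, Lhcgr, Fshr, Amh and Amhr2 stand higher in testis, and Rxfp2, Esr1, Calcrl, Ramp1 and Gnas higher in gubernaculum, with no overlap between the tissues for any of them.

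Skeletal muscle genes were the largest group that was higher in gubernaculum. Of the 126 genes of the 5 muscle lists, all of which were tested, 120 were called higher in gubernaculum, beside 14.0% of all genes, and 1 was called higher in testis. The count of each list moved by at most 1 gene when any library was left out. Per length, Acta1 had the highest level of all genes in gubernaculum outside the mitochondrial genome, 9389 ± 587 FPKM (SD, n = 3), and Myl1, Actc1, Mylpf and Tnnc2 were also among the 10 highest, with 3540 ± 297, 2323 ± 792, 2268 ± 50.2 and 1912 ± 123 FPKM. The other 5 were Eef1a1, Col3a1, Dlk1, Sparc and Tpt1. The 10 highest in testis were Eef1a1, Clu, Rplp0, Tpt1, Sparc, Eef2, Rpl13a, Rpl13, H3f3b and Rpl8, of which Clu, at 1279 ± 242 FPKM, is known from Sertoli cells and most others serve translation.

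The myogenic regulators drive the steps from muscle stem cell to fibre, and 19 of 21 were called higher in gubernaculum, none in testis, with a median log2 fold change of 6.27 (6.04 with genes at 0 in testis set at their bound). Pax7, the marker of satellite cells, had 46.6, 53.9 and 53.8 CPM in gubernaculum and 0.524, 0.759 and 0.698 in testis, a log2 fold change of 6.27 (SE 0.18, edgeR adjusted p = 7.69e-07). Myod1, which commits myoblasts, had 123, 101 and 113 CPM in gubernaculum and 0.0997, 0 and 0.0931 in testis, a log2 fold change of 10.73 (SE 0.37, edgeR adjusted p = 1.53e-06). Myog, which starts fusion into fibres, had 476, 372 and 408 and 0.249, 0 and 0.0465 CPM, a log2 fold change of 12.06 (SE 0.54, edgeR adjusted p = 4.18e-06). The genes of all these stages were thus present in each gubernaculum library and at or under 0.759 CPM in each testis library. Myf5 had 57.4, 36.9 and 34.4 CPM in gubernaculum and no more than 3 counts in a testis library, a ratio of counts of 1096 (exact 95% counting interval 469 to 3376). Myf6, which marks maturing fibres, had 202, 121 and 127 CPM and no count in testis, at least 2127-fold higher in gubernaculum. Mstn, which encodes myostatin, a restraint on muscle growth, had 98.8, 117 and 106 CPM and no count in testis, at least 1521-fold higher. Mymk, a membrane protein gene needed for fusion of myoblasts, was higher by 7.60 on the log2 scale. The 2 members not called were Pax3, with at most 0.712 CPM in any library, and Mef2a (0.52), which many tissues express.

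Of 57 sarcomere genes, 55 were called higher in gubernaculum and 1 higher in testis, with a median of 9.17 (8.77 with genes at 0 at their bound). Their summed level was 80025 to 84899 CPM in gubernaculum and 922 to 1142 CPM in testis, or 6.96% to 7.36% of the counts in annotated genes against 0.108% to 0.131%. Acta1 (ENSMUSG00000031972, chromosome 8, 123891769 to 123894751, minus strand) had 17844, 15952 and 16648 CPM in gubernaculum and 0.299, 0.692 and 6.77 in testis, a log2 fold change of 12.66 (SE 1.34, edgeR adjusted p = 0.000206). Testis replicate 3 held most of the few Acta1 counts of that tissue. Tnnc2, the fast skeletal troponin C gene, had 1642, 1770 and 1585 CPM in gubernaculum and 0.0499, 0 and 0.116 in testis, a log2 fold change of 14.80 (SE 0.43, edgeR adjusted p = 7.69e-07), the largest fold change among genes with counts in both tissues and a mean of at least 10 CPM in the higher one. Actc1, the cardiac actin gene that immature skeletal muscle also uses, had 5874, 3401 and 3475 CPM in gubernaculum and 0.0997, 0.268 and 0.326 in testis, a log2 fold change of 14.13 (SE 0.49, edgeR adjusted p = 1.57e-06). Next in fold change came Myl1, Csrp3, Myh8, Atp1b4, Acta1 and Myom2, from 12.31 for Myom2 to 13.84 for Myl1 on the log2 scale. Myot had no count in testis (at least 4660-fold higher in gubernaculum), and Hfe2, the hemojuvelin gene of iron balance, had no more than 3 counts in a testis library (ratio of counts 8219, exact 95% counting interval 3521 to 25314).

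The myosin heavy chains showed which kinds of fibre gene were read. Myh3, the embryonic form, had 4139, 3786 and 4173 CPM in gubernaculum and 4.11, 2.30 and 2.09 in testis, and Myh8, the perinatal form, had 7288, 11246 and 10608 and 0.898, 1.05 and 1.14. Myh7, the slow form, had 1290, 1675 and 1698 CPM in gubernaculum and 9, 7.35 and 7.28 in testis. Per length, the perinatal form stood at 1270 ± 271 FPKM in gubernaculum, the embryonic form at 537 ± 27.2, the slow form at 203 ± 28.3, and the adult fast forms Myh1, Myh2 and Myh4 at 88.6 ± 52.2, 34.8 ± 25.5 and 6.37 ± 3.88. Each adult fast form was lowest in gubernaculum replicate 1, with 209.8, 66.6 and 24.6 CPM against 873, 448 and 80 in replicate 2. Troponin I was the exception to the direction of the list. The slow and fast genes Tnni1 and Tnni2 were higher in gubernaculum by 6.55 and 10.84, whereas Tnni3, the cardiac gene, had 2.25, 2.31 and 2.10 CPM in gubernaculum and 73.2, 57.4 and 43.4 in testis and was higher in testis (a log2 fold change of -4.70 (SE 0.23, edgeR adjusted p = 5.76e-06)). Nebl, a cardiac relative of nebulin, was the only member not called.

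All 18 genes of excitation-contraction coupling, which links the nerve signal to calcium release and shortening, were called higher in gubernaculum (median 6.38). Atp2a1, the calcium pump gene of fast fibres, had 2520, 2975 and 2896 CPM in gubernaculum and 1.25, 0.893 and 1.02 in testis, a log2 fold change of 11.37 (SE 0.21, edgeR adjusted p = 3.63e-07). Ryr1, the calcium release channel gene, had 337, 672 and 758 CPM in gubernaculum and 7.95, 4.89 and 3.61 in testis, a log2 fold change of 6.75 (SE 0.46, edgeR adjusted p = 2.71e-05). Trdn, which encodes triadin of the calcium release complex, had 144, 223 and 213 CPM in gubernaculum and no count in testis, at least 2743-fold higher. Pvalb, a calcium buffer gene of fast fibres, differed among the gubernaculum libraries themselves, at 0.771, 18.1 and 8.21 CPM. Without any library but gubernaculum replicate 1, 17 of the 18 were called.

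Genes of the neuromuscular junction were called higher in gubernaculum in 11 of 12 cases, with a median of 6.51 (6.09 with genes at 0 at their bound). Chrna1, the alpha subunit gene of the muscle acetylcholine receptor, had 179, 163 and 153 CPM in gubernaculum and 0.224, 0 and 0.0465 in testis, a log2 fold change of 10.84 (SE 0.47, edgeR adjusted p = 3.68e-06). The fetal gamma subunit gene Chrng had 91.6, 74.9 and 77.2 CPM in gubernaculum, and the adult epsilon subunit gene Chrne, which replaces it as junctions mature, had 1.11, 1.64 and 1.02. Testis had no count of Chrne and at most 0.067 CPM of Chrng. Musk, the kinase gene that organizes the junction, had 26.4, 32.5 and 37.1 CPM in gubernaculum and 0, 0.313 and 0.628 in testis, a log2 fold change of 6.64 (SE 0.72, edgeR adjusted p = 0.000236). Agrn, which nerve endings and many other cells make, was the member not called, at 112, 158 and 171 CPM in gubernaculum and 111, 138 and 203 in testis.

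Of 18 genes of muscle energy metabolism, 17 were called higher in gubernaculum (median 5.07). Ckm, the muscle creatine kinase gene, had 3320, 3272 and 2734 CPM in gubernaculum and 0.598, 0.916 and 1.35 in testis, a log2 fold change of 11.66 (SE 0.35, edgeR adjusted p = 8.23e-07). Pygm, which encodes the muscle enzyme that breaks down glycogen, had 720.4, 763 and 756 and 24.4, 29.7 and 35.3 CPM, a log2 fold change of 4.65 (SE 0.17, edgeR adjusted p = 1.9e-06). Pgam2, whose promoter holds both an E-box and a MEF2 site, had 450.0, 411 and 408 and 0.673, 0.893 and 1.16 CPM, a log2 fold change of 8.85 (SE 0.22, edgeR adjusted p = 4.32e-07). Mb, the myoglobin gene, was also apart, at 28.7, 47.9 and 52.8 CPM in gubernaculum and 0.249, 0.916 and 0.838 in testis. Phka1 was not called (0.53).

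**Figure D3:**
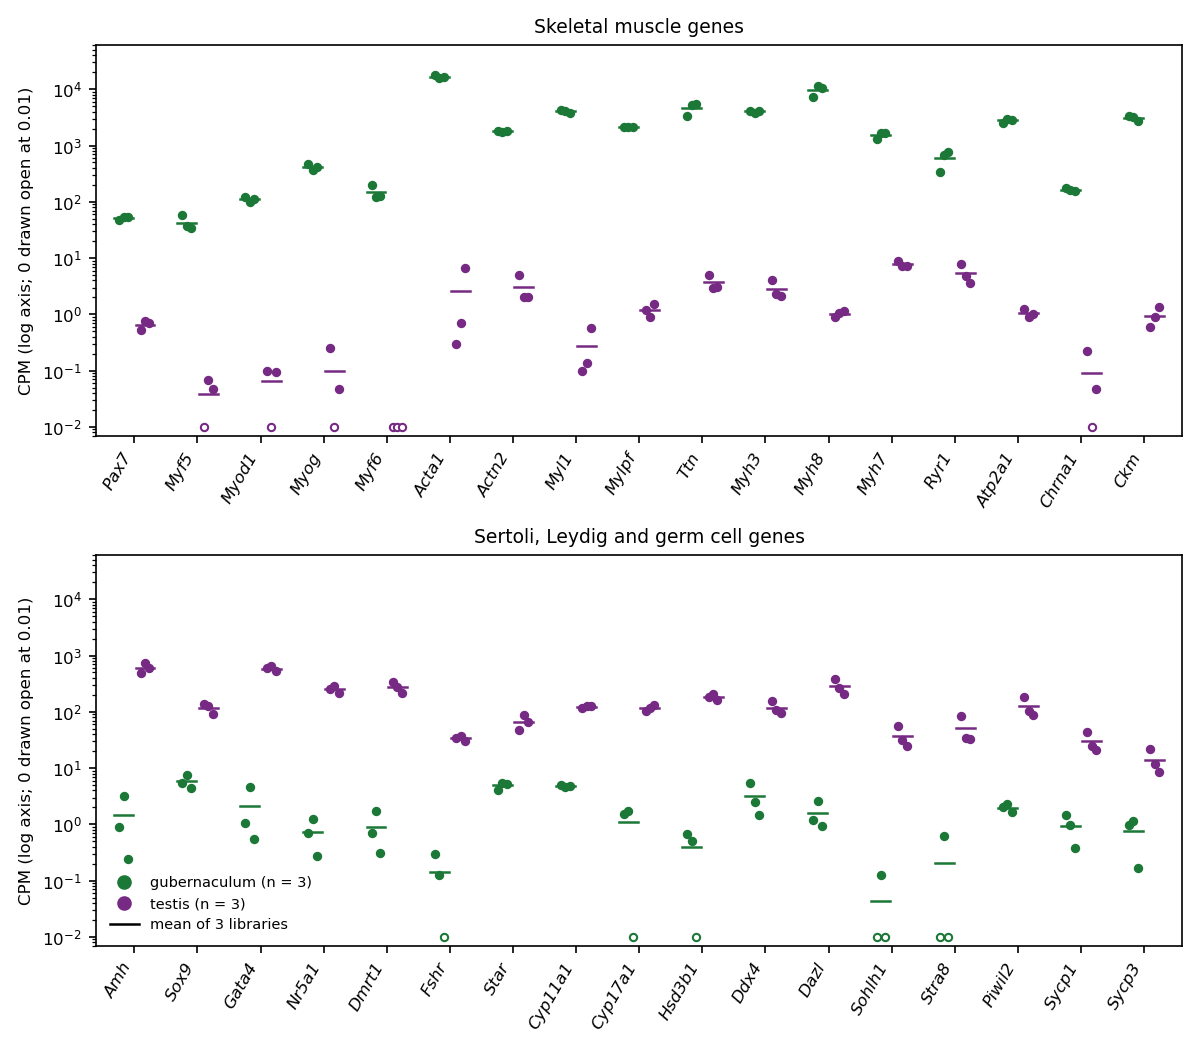
Points are the levels of genes in single libraries in CPM on a log axis, green for gubernaculum and purple for testis, with the mean of 3 libraries as a line and libraries with no count drawn open at 0.01. The upper panel shows skeletal muscle genes, where Acta1 reaches 15952 CPM or more in each gubernaculum library and at most 6.77 in testis, and the lower panel Sertoli, Leydig and germ cell genes, where each gene is higher in all 3 testis libraries.

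Smooth muscle genes did not follow skeletal muscle. Of 16 genes of smooth muscle and peritubular myoid cells, 8 were called higher in testis and 4 higher in gubernaculum, with a median of -1.56. Myh11, the smooth muscle myosin gene, had 12.1, 32.1 and 46.6 CPM in gubernaculum and 203, 214 and 268 in testis, a log2 fold change of -2.92 (SE 0.45, edgeR adjusted p = 0.00119). Cnn1, the gene of smooth muscle calponin, had 4.22, 3.60 and 1.49 and 14.4, 27.6 and 41.3 CPM, a log2 fold change of -3.16 (SE 0.50, edgeR adjusted p = 0.00141). Actg2, Mylk, Myocd, Lmod1 and Ptch1 were also called higher in testis. Acta2, the smooth muscle actin gene, was at 1226, 972 and 888 CPM in gubernaculum and 569, 676 and 822 in testis, without overlap, and was not called (a log2 fold change of 0.58 (SE 0.18, edgeR adjusted p = 0.0265)). The 4 members higher in gubernaculum were Des, Synpo2, Smtn and Pln, of which Des and Synpo2 encode proteins of the striated Z-disc as well, so the summed level of the list, 4186 to 4617 CPM in gubernaculum and 1568 to 2218 in testis, differed in the other direction from its median.

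Connective tissue genes were mostly higher in gubernaculum, with counts that depended on the testis libraries. Of 20 fibroblast genes, 12 were called higher in gubernaculum and 1 higher in testis (median 1.92). Pi16, a marker of fibroblasts around vessels, had 97.2, 121 and 99.4 CPM in gubernaculum and 4.79, 5.34 and 10.1 in testis, a log2 fold change of 3.97 (SE 0.30, edgeR adjusted p = 4.27e-05). Dpt, the dermatopontin gene, had 406, 437 and 391 and 49.2, 64.9 and 127 CPM, a log2 fold change of 2.36 (SE 0.34, edgeR adjusted p = 0.000846). Pdgfra, a receptor gene of mesenchyme and of interstitial cells of the testis, was the exception, at 218, 229 and 268 CPM in gubernaculum and 412, 508 and 592 in testis, a log2 fold change of -1.08 (SE 0.16, edgeR adjusted p = 0.000987). The summed level of the list was 50491 to 53902 CPM in gubernaculum, and 7941, 12441 and 23377 CPM in testis replicates 1, 2 and 3. Without testis replicate 3 the number higher in gubernaculum was 18, without testis replicate 2 it was 5, and without any 1 of the gubernaculum libraries it was 7. Pdgfra fell under 2-fold without testis replicate 3, at -0.98 on the log2 scale. How far the high level in testis replicate 3 entered the result was not tested.

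Of 44 collagen genes, 21 were called higher in gubernaculum and 9 higher in testis (median 1.25), and 14 and 10 with library totals alone. Per length, Col3a1 led the list in both tissues, with 3042 ± 84 FPKM in gubernaculum and 823 ± 480.2 in testis. Col3a1, a fibrillar chain of soft connective tissue, had 20698, 20509 and 22022 CPM in gubernaculum and 2100, 3498 and 6956 in testis, a log2 fold change of 2.33 (SE 0.41, edgeR adjusted p = 0.00222). Col1a1, the main chain of tendon and dermis, had 11832, 12383 and 13497 and 1784, 3069 and 6430 CPM, a log2 fold change of 1.74 (SE 0.43, edgeR adjusted p = 0.00991). Chains of types I, III and V were on the gubernaculum side, as were Col6a1, Col6a2, Col6a3 and Col6a6 of type VI. Col4a3 and Col4a4, which form a specialized basement membrane with Col4a5, had 1.88, 5.01 and 3.53 and 3.25, 17.1 and 13.5 CPM in gubernaculum and 119.8, 92.3 and 81.9 and 319.8, 271 and 281 in testis, a log2 fold change of -4.82 (SE 0.35, edgeR adjusted p = 3.54e-05) and a log2 fold change of -4.69 (SE 0.55, edgeR adjusted p = 0.000344). Col6a4, Col4a6, Col9a1, Col9a2, Col9a3, Col13a1 and Col18a1 were the others. By contrast Col4a1 and Col4a2, of all basement membranes, were not called, although the tissues did not overlap for Col4a1 (1841, 2310 and 2823 CPM in gubernaculum and 1215, 1432 and 1747 in testis). The summed level was 59624 to 68480 CPM in gubernaculum and 11968, 17412 and 30469 in testis replicates 1, 2 and 3, and the number called higher in gubernaculum was 6 without testis replicate 2, 10 to 12 without a gubernaculum library and 24 without testis replicate 3. Col1a1 was not called without testis replicate 2 or any 1 of the gubernaculum libraries (edgeR adjusted p up to 0.0425), nor Col3a1 without testis replicate 2 (0.0133).

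Of 37 tested genes of the matrix and its remodelling, 21 were called higher in gubernaculum and 4 higher in testis (median 1.23). Tnc, the tenascin C gene of developing tendon and muscle matrix, had 435, 427 and 546 CPM in gubernaculum and 4.96, 10 and 26.6 in testis, a log2 fold change of 5.08 (SE 0.61, edgeR adjusted p = 0.000382). Postn, the periostin gene, had 5416, 5272 and 5857 and 86.1, 189 and 477 CPM, a log2 fold change of 4.46 (SE 0.61, edgeR adjusted p = 0.000714). Fn1, the fibronectin gene, had 2098, 2514 and 3310 and 431, 494 and 769 CPM, a log2 fold change of 2.23 (SE 0.27, edgeR adjusted p = 0.000386). These 3 matrix genes did not overlap between the tissues, although testis replicate 3 was the highest testis library for each. The members higher in testis were Acan, Mmp9, Adamts5 and Adamts9, the first a proteoglycan gene and the rest protease genes (2 in place of 4 without testis replicate 2, and also without gubernaculum replicate 2). Eln, the elastin gene, overlapped, at 595, 998 and 1290 CPM in gubernaculum and 536, 572 and 1041 in testis. Tendon markers gave no common direction. Scx, the tendon transcription factor gene, was higher in testis (28.2, 27.8 and 30.1 CPM in gubernaculum and 63.3, 65.9 and 49.6 in testis, a log2 fold change of -1.05 (SE 0.13, edgeR adjusted p = 0.000388)), Egr1 and Thbs4 were higher in gubernaculum, and Mkx and Tnmd overlapped, with a median of 0.84 over the 9 genes. Without testis replicate 3, 4 tendon genes were called higher in gubernaculum, and without testis replicate 2 none was called higher in testis, since Scx then lay just under 2-fold.

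Transcription factors of limb and body wall mesenchyme were higher in gubernaculum, and those of the gonad higher in testis. Of 26 mesenchymal factors tested, 12 were called higher in gubernaculum and 3 higher in testis, beside 14.0% and 14.2% of all genes (median 1.57). Tbx15, a factor of body wall and limb muscle and skeleton, had 141, 139 and 153 CPM in gubernaculum and 0.249, 0.380 and 0.140 in testis, a log2 fold change of 9.11 (SE 0.25, edgeR adjusted p = 6.23e-07). Pitx1, which specifies the hindlimb, had 74.3, 62.1 and 72.5 and 0.374, 0.648 and 0.815 CPM, a log2 fold change of 6.81 (SE 0.25, edgeR adjusted p = 2.14e-06). Tbx4, which acts with Pitx1 in the hindlimb, had 14.1, 13.1 and 11.1 and 0.474, 0.290 and 0.791 CPM, a log2 fold change of 4.62 (SE 0.37, edgeR adjusted p = 5.96e-05). These hindlimb factors were at or under 0.815 CPM in each testis library, while Tbx5, the forelimb counterpart of Tbx4, was too low to be tested. Also on the gubernaculum side were Prrx1 (2.42), Tbx3 (2.07), Foxp2 (2.25), Meox2 (3.01), Irx3 (2.57), Irx5 (5.63), Six2 (5.31) and Nr2f1 (2.81). Osr2, Foxf1 and Nr2f2, which interstitial mesenchyme of internal organs also uses, were higher in testis, with log2 fold changes of -1.24, -2.57 and -1.07. Tbx3, Foxp2 and Nr2f1 lost the call without testis replicate 2, Nr2f2 without testis replicate 3, and all but Nr2f1 also without other single libraries (edgeR adjusted p up to 0.0368 for Tbx3, 0.0209 for Foxp2, 0.0123 for Nr2f1 and 0.013 for Nr2f2).

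Of 20 gonadal transcription factors, 14 were called higher in testis and 1 higher in gubernaculum (median -2.93). Nr5a1, which encodes steroidogenic factor 1, had 0.704, 1.25 and 0.271 CPM in gubernaculum and 258, 285 and 217 in testis, a log2 fold change of -8.40 (SE 0.41, edgeR adjusted p = 6.35e-06). Gata4 (ENSMUSG00000021944, chromosome 14, 63198922 to 63271692, minus strand), needed for formation of the gonad, had 1.07, 4.66 and 0.543 and 594, 644 and 523 CPM, a log2 fold change of -8.12 (SE 0.75, edgeR adjusted p = 0.000107). Wt1 was expressed in both tissues, at 53.1, 88.5 and 57.6 CPM in gubernaculum and 309, 296 and 259 in testis, a log2 fold change of -2.12 (SE 0.21, edgeR adjusted p = 0.000142). Lhx9, Dmrt1, Nr0b1, Tcf21, Dmrt3, Sox9, Cbx2, Gata6, Sox8 and Cited2 were also on the testis side, with log2 fold changes from -8.77 for Lhx9 to -1.36 for Cited2. The gene higher in gubernaculum was Sox10, better known as a factor of Schwann cells, at 18.2, 18 and 19.2 CPM against 4.59, 4.51 and 3.51 (a log2 fold change of 2.13 (SE 0.17, edgeR adjusted p = 5.1e-05)).

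Hox genes, which give cells their position along the body axis, were called no more often than genes at large. Of 32 tested, 4 were called higher in gubernaculum, beside 14.0% of all genes, and 3 higher in testis, beside 14.2% (median 1.30). Hoxc10, a gene of the lumbar level and hindlimb, had 46.4, 45.8 and 47.4 CPM in gubernaculum and 2.54, 5.58 and 5.52 in testis, a log2 fold change of 3.35 (SE 0.29, edgeR adjusted p = 8.57e-05). Hoxd10, its relative in the Hoxd cluster, had 3.12, 3.12 and 2.48 and 11.8, 19.1 and 18.7 CPM, a log2 fold change of -2.51 (SE 0.24, edgeR adjusted p = 0.000139). Hoxd9 likewise was higher in testis, at 62.9, 86.7 and 86.1 CPM against 22.9, 21.9 and 19.1, a log2 fold change of -1.88 (SE 0.15, edgeR adjusted p = 5.96e-05). Members of the same paralogue group differed in opposite directions. Hoxb9 was the third gene higher in testis (a log2 fold change of -2.16 (SE 0.18, edgeR adjusted p = 6.94e-05)). Hoxa2 and Hoxc9 were higher in gubernaculum by 2.61 and 2.13, and Hoxa13, of the caudal end of the body axis, had 1.27, 0.642 and 0.577 CPM in gubernaculum and no count in testis, at least 11.8-fold higher. Neither Hoxa2 nor Hoxc9 was called without testis replicate 2 or any 1 of the gubernaculum libraries (edgeR adjusted p up to 0.0256 and 0.0168).

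The 11 tested Hoxa genes had positive values, yet 9 of them were not called. Hoxa10 had 44.7, 45.8 and 43.3 CPM in gubernaculum and 0.574, 7.35 and 11.1 in testis, a log2 fold change of 2.81 (SE 0.79, edgeR adjusted p = 0.0174), and Hoxa11 had 34.3, 31.5 and 26.1 and 0, 2.21 and 5.66, a log2 fold change of 3.54 (SE 1.05, edgeR adjusted p = 0.0222). The gubernaculum libraries lay close together and testis replicate 1 lay far under the other testis libraries. Without testis replicate 3, 16 Hox genes were called higher in gubernaculum, without testis replicate 1 there were 7, and without any other library there were 2. The number higher in testis was 5 without testis replicate 1.

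**Figure D4:**
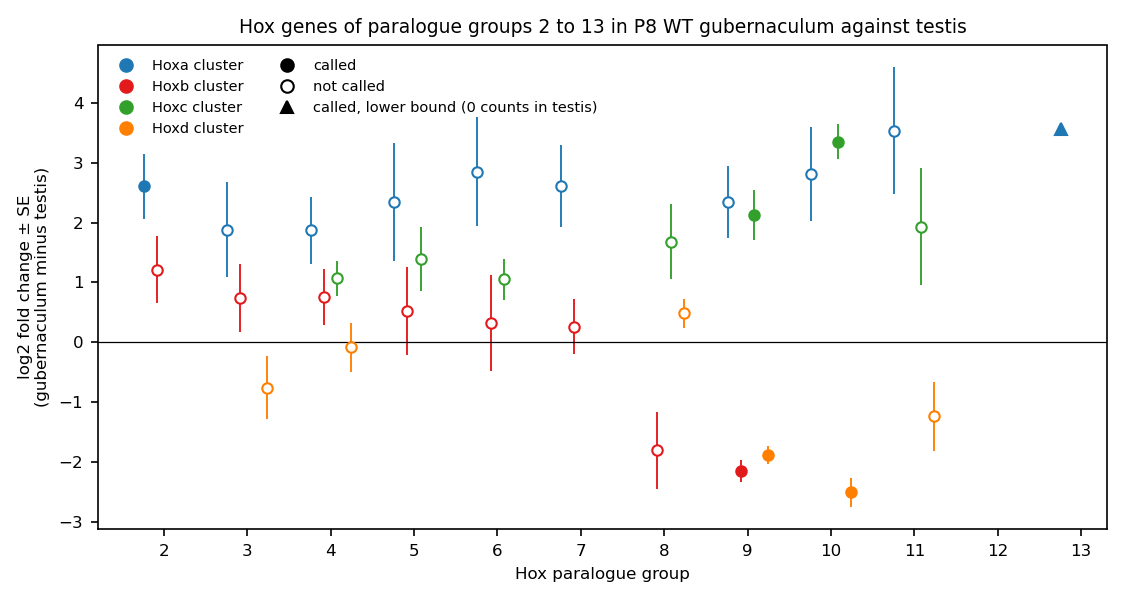
Each point is the log2 fold change of a Hox gene, gubernaculum minus testis, with its SE, placed by paralogue group from 2 to 13 and coloured by cluster, filled where the gene was called, and a triangle at the lower bound for Hoxa13, which had no count in testis. All Hoxa and Hoxc genes drawn lie above 0, Hoxb genes run from 1.21 at Hoxb2 to -2.16 at Hoxb9, and Hoxd9 and Hoxd10 lie under 0 at -1.88 and -2.51.

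Of 44 Wnt pathway genes tested, 14 were called higher in gubernaculum and 8 higher in testis, beside 14.0% and 14.2% of all genes (median 0.35, and -0.07 with library totals alone). Wnt6, a ligand gene, had 4.29, 4.63 and 4.68 CPM in gubernaculum and 241, 279.9 and 212 in testis, a log2 fold change of -5.75 (SE 0.15, edgeR adjusted p = 5.38e-07). Wnt3 had no count in gubernaculum and 1.57, 2.05 and 1.44 CPM in testis, at least 17-fold higher there. Wnt2, Wnt9a, Wnt10b, Wnt11 and Wnt16 were the ligand genes higher in gubernaculum, by 2.29 to 5.02 on the log2 scale. Secreted inhibitors were a second group on the gubernaculum side. Frzb had 123, 117 and 117 CPM in gubernaculum and 9.25, 4.53 and 3.77 in testis, a log2 fold change of 4.35 (SE 0.34, edgeR adjusted p = 4.9e-05), Wif1 had 86.4, 48.2 and 43.8 and 6.81, 4.33 and 3.77, and Sfrp2, Sfrp4 and Sfrp5 were higher by 2.31 to 3.25, whereas Sfrp1 was higher in testis (-1.75). Among receptors, Fzd4, Fzd9 and Fzd10 were higher in gubernaculum and Fzd3 and Fzd5 in testis. Tcf7, a nuclear effector gene, had 10.1, 9.25 and 8.41 CPM in gubernaculum and 133, 122 and 114 in testis, a log2 fold change of -3.73 (SE 0.12, edgeR adjusted p = 1.06e-06), while the general target Axin2 overlapped (21.9, 26.3 and 33.6 and 22.8, 26.1 and 27 CPM). Without any 1 of the gubernaculum libraries 5 Wnt genes in place of 8 were called higher in testis. Wnt10b lost the call without testis replicate 2 or a gubernaculum library, and Sfrp1 without testis replicate 2 or gubernaculum replicate 1 or 2 (edgeR adjusted p up to 0.029 and 0.0313).

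Of 54 genes of BMP, activin and TGF-beta signalling, 16 were called higher in gubernaculum and 10 higher in testis, beside 14.0% and 14.2% of all genes. The median was 0.16. With library totals alone the numbers were 12 and 16 and the median -0.27, beside 1489 and 3642 of all 15746 genes and a median of -0.42. The side with more calls thus depended on the scaling, under which the calls of all genes also shifted toward testis. The ligand genes Bmp2, Bmp3, Bmp4, Bmp7, Gdf5, Tgfb2 and Tgfb3 were higher in gubernaculum, and the inhibin subunit genes and Amh in testis. Inha had 18.7, 20.8 and 18.6 CPM in gubernaculum and 559, 696 and 537 in testis, a log2 fold change of -4.95 (SE 0.15, edgeR adjusted p = 9.22e-07), and Inhbb had 1.27, 3.66 and 2.34 and 329, 397 and 272, a log2 fold change of -7.09 (SE 0.39, edgeR adjusted p = 1.04e-05). Among extracellular antagonists, Nog, the noggin gene, had 26.6, 22 and 26.6 CPM in gubernaculum and 0.524, 0.514 and 1.28 in testis, a log2 fold change of 5.01 (SE 0.38, edgeR adjusted p = 4.38e-05). Chrd, Grem1 and Fst were on the same side, and Fstl3 was higher in testis. Smad6 and Smad7, the inhibitory members of the Smad family, were higher in testis, with log2 fold changes of -1.88 and -2.37.

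Of 25 FGF pathway genes, 13 were called higher in gubernaculum and 1 higher in testis, beside 14.0% and 14.2% of all genes (median 1.35). With library totals alone the numbers were 8 and 2. Fgfr4, a receptor gene of developing muscle, had 131, 105 and 119.8 CPM in gubernaculum and 2.32, 3.15 and 5.17 in testis, a log2 fold change of 5.06 (SE 0.30, edgeR adjusted p = 1.37e-05), whereas Fgfr2 had 2.51, 3.28 and 4.24 and 20.4, 36.5 and 49.9, a log2 fold change of -3.41 (SE 0.37, edgeR adjusted p = 0.000229). Fgf6, a ligand gene known from muscle, had 7.24, 6.39 and 8.72 CPM in gubernaculum and at most 0.112 in testis, and Fgf7 and Fgf10, ligands made by mesenchyme, were higher in gubernaculum by 2.84 and 3.07, the latter not called without testis replicate 2 or a gubernaculum library (edgeR adjusted p up to 0.0293). Of 14 Hedgehog pathway genes, 6 were called higher in testis and 2 higher in gubernaculum, beside 14.2% and 14.0% of all genes (median -1.11). The gubernaculum number was 1 with library totals alone. Dhh, the ligand gene of Sertoli cells, had 5.06, 7.36 and 6.51 CPM in gubernaculum and 249, 259 and 185 in testis, a log2 fold change of -5.19 (SE 0.21, edgeR adjusted p = 2.79e-06). The targets Ptch1 and Gli1 had 18.6, 27 and 31.8 and 16.3, 24.2 and 24.6 CPM in gubernaculum and 236, 226 and 243 and 64.4, 77 and 80.7 in testis, a log2 fold change of -3.19 (SE 0.20, edgeR adjusted p = 1.76e-05) and a log2 fold change of -1.77 (SE 0.18, edgeR adjusted p = 0.000175), and Hhip was on the same side. Gas1 and Cdon, whose proteins help receive the ligand, were higher in gubernaculum (2.26 and 1.18), a number that was 0 without testis replicate 2, 3 without testis replicate 3 and 1 without any other library. Of 22 Notch pathway genes, 6 were called higher in gubernaculum and 2 higher in testis, beside 14.0% and 14.2% of all genes (median 0.19). The gubernaculum number was 3 without testis replicate 2. With library totals alone the numbers were 2 and 5 and the median -0.24, beside 1489 and 3642 of all 15746 genes and a median of -0.42. The side with more calls again depended on the scaling, as part of the shift of all genes toward testis. The ligand gene Dll1 had 35.6, 35.1 and 32.9 CPM in gubernaculum and 0.748, 1.27 and 1.89 in testis, a log2 fold change of 4.72 (SE 0.32, edgeR adjusted p = 2.51e-05), and Dtx1, a regulator of the pathway, had 2.41, 3.92 and 2.21 and 250.3, 227 and 184, a log2 fold change of -6.27 (SE 0.26, edgeR adjusted p = 3.29e-06).

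Imprinted growth genes, which are read from 1 parental allele and are known to be active in fetal and newborn tissue, were higher in gubernaculum in 14 of 21 cases and higher in testis in 1 (median 2.16). Igf2, the fetal growth factor gene, had 7375, 7805 and 8225 CPM in gubernaculum and 257, 366 and 635 in testis, a log2 fold change of 4.22 (SE 0.35, edgeR adjusted p = 6.28e-05). Cdkn1c, a growth inhibitor gene, had 2806, 1772 and 2032 and 50.4, 73.7 and 134 CPM, a log2 fold change of 4.68 (SE 0.41, edgeR adjusted p = 8.6e-05). Rtl1, which fetal muscle uses, had 327, 522 and 579 and 1.02, 1.30 and 3.91 CPM, a log2 fold change of 7.84 (SE 0.59, edgeR adjusted p = 4.31e-05). Dlk1, also found in Leydig cell precursors, had 5846, 4262 and 4699 CPM in gubernaculum and 795, 955 and 1312 in testis, a log2 fold change of 2.27 (SE 0.22, edgeR adjusted p = 0.000145). The summed level of the list was 22463 to 24485 CPM in gubernaculum and 2375 to 4236 in testis, and Nnat was the member higher in testis (-1.16). Cell cycle genes went the other way. Of 20, none was called higher in gubernaculum and 10 were called higher in testis (median -1.02), such as Mcm2 of DNA replication, with 82.6, 79.2 and 81.2 CPM in gubernaculum and 246, 221 and 198 in testis (a log2 fold change of -1.45 (SE 0.11, edgeR adjusted p = 3.8e-05)). Mki67 overlapped, at 139, 248 and 257 and 193, 218 and 211 CPM.

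Sertoli cells nurse the germ cells, and of 26 Sertoli cell genes 22 were called higher in testis, none in gubernaculum, beside 14.2% of all genes (median -5.45). Amh (ENSMUSG00000035262, chromosome 10, 80805243 to 80807648, plus strand) had 0.905, 3.21 and 0.237 CPM in gubernaculum and 494, 741 and 595 in testis, a log2 fold change of -8.70 (SE 0.77, edgeR adjusted p = 8.8e-05). Sox9, the testis-determining factor downstream of Sry, had 5.33, 7.68 and 4.44 and 136, 124 and 90.5 CPM, a log2 fold change of -4.33 (SE 0.26, edgeR adjusted p = 1.4e-05). Cldn11, a tight junction gene, had 2.31, 2.83 and 0.950 and 158, 93.2 and 68.2 CPM, a log2 fold change of -5.71 (SE 0.48, edgeR adjusted p = 6.88e-05). Gubernaculum replicate 2 was the highest gubernaculum library for these 3 genes, and its level stayed far under each testis library. Hsd17b1, Aard, Aldh1a1, Rhox8 and Shbg were also far apart, by 369.6-fold for Hsd17b1 and 75.6-fold for Aldh1a1, both higher in testis. Their list summed to 513 to 558 CPM in gubernaculum and 6880 to 9006 in testis. Rhox5, Tsx, Trf and Etv5 were not called.

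Of 17 Leydig cell genes tested, 11 were called higher in testis and 2, Dlk1 and Thbs2, higher in gubernaculum (median -4.16). The shares of all genes were 14.2% and 14.0%. Star, which carries cholesterol into mitochondria, had 4.16, 5.46 and 5.26 CPM in gubernaculum and 48.4, 86.4 and 66.1 in testis, a log2 fold change of -3.75 (SE 0.24, edgeR adjusted p = 2.09e-05). Cyp11a1, the first enzyme of steroid synthesis, had 4.96, 4.69 and 4.82 and 115, 127 and 125 CPM, a log2 fold change of -4.67 (SE 0.10, edgeR adjusted p = 3.63e-07). Hsd3b1, the next enzyme, had 0.671, 0.514 and 0 and 182, 207 and 164 CPM, a log2 fold change of -8.85 (SE 0.54, edgeR adjusted p = 1.65e-05). All 3 were far lower in gubernaculum, where Star and Cyp11a1 had counts in each library and Hsd3b1 had none in replicate 3. Cyp17a1 and Hsd17b3, of androgen synthesis, were higher in testis by 107-fold and 153-fold. Because Dlk1 is so high in gubernaculum, the summed level of the list, 4901 to 6557 CPM there and 2780 to 3329 in testis, differed in the other direction from the median.

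Germ cell genes were higher in testis. Of 24 spermatogonial genes, 20 were called higher in testis and none in gubernaculum (median -4.50, and -4.17 with genes at 0 at their bound). Dazl, an RNA-binding protein gene of germ cells, had 1.21, 2.63 and 0.950 CPM in gubernaculum and 379.7, 265 and 206 in testis, a log2 fold change of -7.46 (SE 0.45, edgeR adjusted p = 1.51e-05). Sohlh1, a factor of differentiating spermatogonia, had 0, 0.128 and 0 and 55.4, 31.5 and 24.3 CPM, a log2 fold change of -9.60 (SE 0.71, edgeR adjusted p = 3.91e-05). Stra8, the retinoic acid target of meiotic entry, had 0, 0.610 and 0 and 85.2, 34.5 and 32.6 CPM, a log2 fold change of -7.90 (SE 0.94, edgeR adjusted p = 0.000358). Testis replicate 1 was the highest testis library for these 3 genes, as it was for the summed list (1975, 1349 and 1152 CPM in testis replicates 1, 2 and 3 and 91.8 to 113 in gubernaculum). Of 17 piRNA pathway genes, 13 were called higher in testis and 1, Tdrd6, higher in gubernaculum (median -4.28). Piwil2 had 2.01, 2.28 and 1.66 CPM in gubernaculum and 184, 105 and 88.5 in testis, a log2 fold change of -5.98 (SE 0.34, edgeR adjusted p = 1.25e-05), and Mael had 8.28, 3.47 and 0.950 and 113, 73.4 and 61.3, a log2 fold change of -4.28 (SE 0.66, edgeR adjusted p = 0.00126). Tdrd6 was highest in gubernaculum replicate 1, with 6.94, 3.73 and 0.916 CPM in gubernaculum, and remained called only when gubernaculum replicate 3 was the library left out. Of 30 meiosis genes, 19 were called higher in testis and none in gubernaculum (median -3.61, and -3.39 at the bound). Sycp1 had 1.48, 0.964 and 0.373 CPM in gubernaculum and 43.3, 25 and 21.2 in testis, a log2 fold change of -4.99 (SE 0.50, edgeR adjusted p = 0.000168), Mei1 had no count in gubernaculum and 9.77, 3.89 and 3.72 in testis, at least 58.2-fold higher, and Spo11 and Prdm9 overlapped.

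Genes of spermatids and sperm, which P8 testis has not yet formed, were low in testis and higher in some gubernaculum libraries. Their summed level was 153, 59.9 and 25.9 CPM in gubernaculum replicates 1, 2 and 3 and 12.1 to 12.9 CPM in testis. Prm2, the protamine gene of sperm chromatin, had 16.9, 3.89 and 0.102 CPM in gubernaculum and 0, 0 and 0.140 in testis. Crisp2, a protein gene of the acrosome, had 14.2, 3.63 and 1.19 and 0, 0.0893 and 0 CPM, a log2 fold change of 7.53 (SE 1.37, edgeR adjusted p = 0.00263). Of the 15 tested, 4 were called higher in gubernaculum (Tnp2, Ldhc, Crisp2 and Hspa1l) and none in testis, with a median of 2.36. The number was 11 without gubernaculum replicate 3, 2 without testis replicate 1 and 1 without testis replicate 2, where Crisp2 was not called (edgeR adjusted p = 0.0122). Gubernaculum replicate 1 held most of this RNA, and its part in other results was not tested. Without that library alone, 1978 genes were called higher in gubernaculum and 2068 higher in testis. Without testis replicate 3 alone the numbers were 2416 and 2213, and without both libraries 2462 and 2226.

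**Figure D5:**
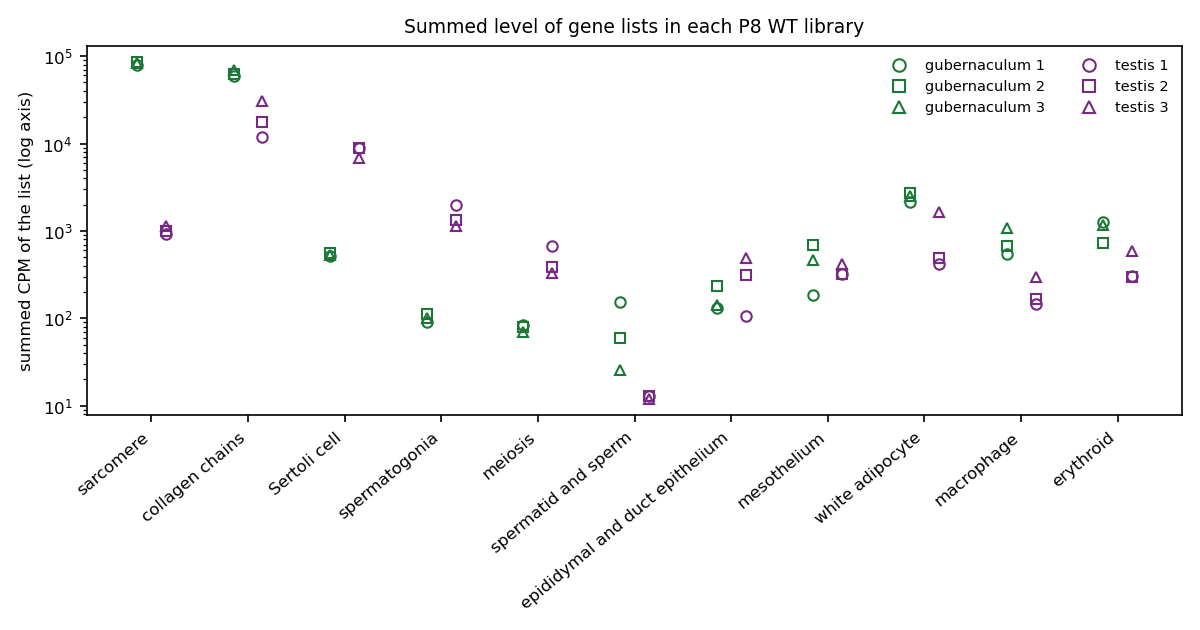
Points give the summed CPM of the members of a gene list in each library on a log axis, green for gubernaculum and purple for testis, with the replicate shown by the shape. Sarcomere, Sertoli cell, spermatogonia and meiosis lists separate the tissues, spermatid genes spread from 25.9 to 153 CPM over the gubernaculum libraries, and collagen and white adipocyte genes are highest among the testis libraries in replicate 3.

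Markers of further cell types were counted in the same way. Over all genes, 14.0% were called higher in gubernaculum and 14.2% higher in testis. White adipocyte genes were called higher in testis in 4 of 15 cases (median -1.02) and never in gubernaculum with all libraries (3 without testis replicate 3, and 2 in testis without any 1 of the gubernaculum libraries). Adipoq, the adiponectin gene, had 0.201, 0.193 and 0.237 CPM in gubernaculum and 3.09, 5.60 and 36.1 in testis, and Plin1, of fat droplets, had 0.268, 0.321 and 0.611 and 22, 27.4 and 98.3. These defining markers were near 0 in gubernaculum and highest in testis replicate 3. Car3, which fat and slow muscle share, had 1487, 2054 and 1872 CPM in gubernaculum and 32.8, 51.1 and 475 in testis and carried most of the summed level of the list, 2118 to 2732 CPM in gubernaculum and 420.0 to 1635 in testis, which thus differed in the other direction from the median. Of 8 brown adipocyte genes, 4 were called higher in gubernaculum and 1 higher in testis (median 1.78, and 2 in testis with library totals alone), and the 4, Dio2, Cox8b, Ppargc1a and Cpt1b, are muscle genes as well, while the defining Ucp1 was too low to be tested and Cidea was higher in testis (not without testis replicate 1 or 2 or gubernaculum replicate 1 or 2).

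Epididymal and duct epithelium genes were called higher in testis in 8 of 17 cases (median -3.66), with large differences among the testis libraries. Pax2 and Epcam had 0.335, 0 and 0 and 1.21, 2.63 and 0.984 CPM in gubernaculum and 4.14, 8.31 and 10.7 and 36, 74.3 and 94 in testis, a log2 fold change of -6.08 (SE 1.03, edgeR adjusted p = 0.00192) and a log2 fold change of -5.39 (SE 0.51, edgeR adjusted p = 0.000118), and Pax2 lost the call without testis replicate 2. Lcn2, of secretory epithelium, had 0, 21.6 and 36.5 CPM in testis, and the epididymal gene Crisp1 had 0, 29.2 and 41.5. Replicate 1 of testis thus held no count of Lcn2 or Crisp1, while replicates 2 and 3 did, and its levels of Pax2 and Epcam were the lowest in testis. The number called higher in testis was 13 without testis replicate 1, 4 without testis replicate 2, and 5 without testis replicate 3 or gubernaculum replicate 1 or 2, and without testis replicate 3 another 3 were called higher in gubernaculum. Mesothelial genes, of the lining that covers both organs, were called higher in testis in 1 of 8 cases, Wt1, and in gubernaculum in none. The shares of all genes were 14.2% and 14.0%, and the median of the list was 2.52. Msln had 25.8, 94.5 and 87.3 CPM in gubernaculum and 0.873, 2.39 and 15.5 in testis, a log2 fold change of 3.47 (SE 1.01, edgeR adjusted p = 0.02). Without testis replicate 3, 7 of the 8 were called higher in gubernaculum. How far these epithelia entered the other results was not tested.

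Macrophage genes were called higher in gubernaculum in 14 of 18 cases and never in testis (median 1.81). C1qa, a complement gene of tissue macrophages, had 47.3, 50.9 and 76.6 CPM in gubernaculum and 7.93, 11 and 19.1 in testis, a log2 fold change of 2.20 (SE 0.34, edgeR adjusted p = 0.00134). Gubernaculum replicate 3 and testis replicate 3 were the highest of their tissues. The number was 4 without testis replicate 2, 8 or 9 without gubernaculum replicate 2 or 3 or testis replicate 1, 13 without gubernaculum replicate 1 and 15 without testis replicate 3. Of 16 endothelial genes, 9 were called higher in gubernaculum and 1, Sox18, higher in testis (median 1.10). Pecam1 had 148, 179 and 189 CPM in gubernaculum and 27.3, 33.1 and 63.3 in testis, a log2 fold change of 2.06 (SE 0.31, edgeR adjusted p = 0.00112), and Cdh5, another gene of the vessel lining, overlapped. The number higher in gubernaculum was 3 without testis replicate 2, 4 to 7 without a gubernaculum library or testis replicate 1, 12 without testis replicate 3 and 1 with library totals alone. Of 6 erythroid genes, 4 were called higher in gubernaculum (median 1.41), and 0 were called with library totals alone. Leaving out single libraries gave 4 or 5 without gubernaculum replicate 2 or testis replicate 3 and otherwise 0. Hba-a1, an alpha globin gene, had 342, 206 and 335 CPM in gubernaculum and 86.2, 80.5 and 164 in testis. The alpha and beta globin genes have near-identical copies, and their counts are uncertain for that reason.

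Of 14 Schwann cell genes, 6 were called higher in gubernaculum and 3 higher in testis, beside 14.0% and 14.2% of all genes. The median was 1.05, with 1 called in testis without testis replicate 2 and 5 in each tissue with library totals alone. Prx, which encodes periaxin of Schwann cells, had 30.1, 40.7 and 50.4 CPM in gubernaculum and 15.2, 17.9 and 18.8 in testis, a log2 fold change of 1.22 (SE 0.20, edgeR adjusted p = 0.00155). Of 11 neuronal genes, 2 were called higher in gubernaculum and 3 higher in testis, beside 14.0% and 14.2% of all genes. The median was -1.69, and 5 were called higher in testis with library totals alone. Prph and Stmn2, known from peripheral neurons, were the 2 (1 without gubernaculum replicate 1 or 2 or testis replicate 2, and 4 without testis replicate 3). Stmn2 had 40.7, 32 and 21.8 CPM in gubernaculum and 0.224, 1.30 and 3.75 in testis, a log2 fold change of 4.16 (SE 0.80, edgeR adjusted p = 0.00335), and was the gene that lost the call (up to 0.0188). Tubb3, Nefh and Syt1 were higher in testis, the first of them at 70.4, 52.7 and 41 CPM. Mast cell genes were called higher in each tissue in 1 of 6 cases, near the 14.0% and 14.2% of all genes. These were Tpsb2 in gubernaculum and Hdc in testis (median 2.67, and 0 in gubernaculum with library totals alone). Mcpt4 had 28.1, 26.9 and 21.3 CPM in gubernaculum and 1.17, 2.28 and 9.03 in testis, and 4 mast cell genes were called higher in gubernaculum without testis replicate 3 and none without testis replicate 2 or a gubernaculum library.

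The remaining lists had few tested genes, and 14.0% and 14.2% of all genes were called higher in gubernaculum and in testis. Of 6 lymphatic endothelial genes, Prox1, which muscle also uses, was called higher in gubernaculum and Ccl21a and Mmrn1 higher in testis (median -0.18, and 2 in gubernaculum without testis replicate 1 or 3). Of 9 epidermal genes, 3 were called higher in each tissue (median 0.61, and 1 in gubernaculum without testis replicate 2), with Trp63, the p63 gene of stratified epithelia, at 18.7, 21 and 19.2 CPM in gubernaculum and 1.45, 3.37 and 5.33 in testis. Of 4 hepatocyte genes tested, Ahsg was called higher in testis (median 1.10), and Apoa1 stood at 0, 16.3 and 1.32 CPM in gubernaculum, high in replicate 2 alone. None of 4 lymphocyte genes tested was called (median 0.14, and -0.27 with library totals alone), and Cd3e and Cd79a were at most 0.574 CPM in any library. Of 13 housekeeping genes, Pgk1 was called higher in gubernaculum and Polr2a higher in testis (median 0.34, and -0.09 with library totals alone). Actb overlapped, at 1332, 1193 and 1143 CPM in gubernaculum and 1149, 1160 and 1289 in testis. Gapdh had 72.6, 3.95 and 148 and 15.1, 7.99 and 14 CPM and is uncertain, since its many processed copies can take its reads.

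A stricter description took genes with at least 1 CPM in all 3 libraries of a tissue and at most 3 counts in each library of the other. It found 45 genes in gubernaculum and 112 in testis. Of the 45, 15 belong to the 5 muscle lists, among them Myot, Lmod2, Trdn, Myl2, Myf6, Trim55, Mstn, Ckmt2 and Chrnd, which had no count in any testis library. Calcr, the calcitonin receptor gene that resting satellite cells carry, had 26.2, 28.5 and 26.8 CPM in gubernaculum and 0, 0 and 0.0698 in testis. Lbx1, of migrating limb muscle precursors, had 1.21, 3.79 and 2.37 CPM in gubernaculum and none in testis, at least 34.8-fold higher. Grem1 and Krtdap were the other list members, with means of 1.66 and 1.39 CPM, beside Mstn, which the BMP list shares. Among the 112 in testis, Esr2, Wnt3, Hes5, Retn, Rhox13, Usp9y, Mei1, Mei4 and Rad21l belong to the lists. Pou5f1, a pluripotency factor gene that some germ cells keep, had 12.4, 12.2 and 10.4 CPM in testis. The adrenal-type steroid enzyme genes Cyp21a1 and Cyp11b1 had 5.06, 4.60 and 5.19 and 1.42, 1.41 and 2.23 CPM there, with no count in gubernaculum for either. These 4 genes outside the lists, Calcr, Pou5f1, Cyp21a1 and Cyp11b1, were chosen after their values were seen, and Cyp21a1 has a near-identical pseudogene that can share its reads.

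The calls were not spread evenly over the chromosomes. On the X chromosome, 93 of 641 tested genes were called higher in gubernaculum (14.5%) and 198 higher in testis (30.9%), against 14.0% and 13.4% of 15069 autosomal genes. On the Y chromosome, 12 of 20 were called higher in testis and none in gubernaculum. Of the Y-linked list of 7 tested genes, Usp9y and Uba1y were called higher in testis (median -0.000895, and -0.43 with library totals alone), and Usp9y had no count in gubernaculum and 10.8, 7.99 and 6.10 CPM in testis, at least 83.3-fold higher. Ddx3y, which most male tissues express, had 123, 123 and 116 CPM in gubernaculum and 61.9, 72.4 and 71.9 in testis, a log2 fold change of 0.81 (SE 0.10, edgeR adjusted p = 0.000346). Of 13 tested mitochondrial genes, 11 were called higher in gubernaculum and none in testis.

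The same tissue contrast in INSL3-KI mice at P8 rests on 6 other libraries. In it, 3188 of 16134 genes were called higher in gubernaculum (19.8%) and 2784 higher in testis (17.3%). Of 4271 genes called in WT and tested in both genotypes, 2346 were called in the same direction in INSL3-KI, 54.9% of those called in WT and 41.5% of the 5652 called in INSL3-KI, and 260 were called in the opposite direction. The difference between the contrasts was tested as an interaction of tissue and genotype, which found 1489 of 16780 genes with a higher value in WT (8.87%) and 2144 with a lower one (12.8%). For Insl3, INSL3-KI gubernaculum had no count and testis 0.904, 0.451 and 0.684 CPM, where the mouse coding sequence is replaced, and the difference between the contrasts was a difference of 1.85 on the log2 scale (SE 1.68, edgeR adjusted p = 0.397). Rxfp2 had 1.91, 1.84 and 2.41 CPM in INSL3-KI gubernaculum, far under each WT gubernaculum library, and 0.0822, 0.572 and 0 in INSL3-KI testis. Its tissue contrast in INSL3-KI, 3.24 on the log2 scale, was not called (edgeR adjusted p = 0.0345). The difference between the contrasts for Rxfp2 was 2.13 on the log2 scale (SE 1.08, edgeR adjusted p = 0.133). Without INSL3-KI testis replicate 2 that difference was -0.14.

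Among the 10 genes with the largest fold in each tissue of WT, the testis genes Sohlh1, Usp26, Hsd3b1, Amh and Mageb4 did not pass the test of the difference between the contrasts, and neither did Cbln1, Lhx9, Cdkn2a and Hsd17b1 (edgeR adjusted p from 0.0158 to 0.626). Amh had 0.659, 0.658 and 0.324 CPM in INSL3-KI gubernaculum and 193, 104 and 195 in testis. Muscle genes on the gubernaculum side mostly did. Myh8 had 8.69, 2.29 and 3.02 CPM in INSL3-KI gubernaculum and 2.74, 2.59 and 1.37 in testis, where the WT gubernaculum had 7288, 11246 and 10608, a difference of 12.03 on the log2 scale (SE 0.73, edgeR adjusted p = 9.24e-07). Acta1 had 828, 1122 and 1526 CPM in INSL3-KI gubernaculum, under each WT library, and 0.438, 0.241 and 1.74 in testis, a difference of 2.12 on the log2 scale (SE 1.25, edgeR adjusted p = 0.191). That difference ran from 0.87 without INSL3-KI testis replicate 3 to 4.45 without WT testis replicate 3, where it passed (edgeR adjusted p = 0.00255). Of the 10 largest folds on the gubernaculum side, 8 passed the interaction test, and Acta1 and Myot did not. Gene lists of other cell types also stood elsewhere in INSL3-KI mice. Of 16 white adipocyte genes tested there, 14 were called higher in gubernaculum and none in testis (median 4.82, and -1.02 in WT). Of 16 smooth muscle genes, 14 were called higher in gubernaculum and 1 in testis (median 3.98, and -1.56 in WT), and of 21 duct epithelium genes, 9 and 2 (median 3.71, and -3.66 in WT). The sarcomere list, in contrast to its WT median of 9.17, had 15 of 44 called higher in gubernaculum and 10 in testis (median 1.05), while the Sertoli cell list had 1 of 26 and 21 (median -5.29, and -5.45 in WT). The part of these lists in the differences between the contrasts was not tested.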

How the data were processed

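RNA of 6 WT libraries at P8, 3 of gubernaculum and 3 of testis, was sequenced by the authors with paired-end reads from poly(A) libraries. The authors deposited read counts, and FPKM values in a table apart, for every gene and library. HISAT2 and GRCm38 are named in the submitters' processing notes, and the counting program, its annotation and its use of strand are not given in the sources used here. Overlapping, antisense and near-identical genes are therefore uncertain.

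Counts of annotated genes were used as deposited, and loci outside the annotation were left out of the tests. Genes passed the filterByExpr filter of edgeR 4.0.16 (R 4.3.3, minimum count 10, minimum total 15), were scaled by TMM and tested by the quasi-likelihood test between the 2 tissues with Benjamini-Hochberg adjustment over 15746 genes. Deposited FPKM served only to compare levels between genes. A gene with no count in a tissue is given as a bound, at a floor of 3 counts per library, and counting intervals and bounds cover counting error only. The script was tested on simulated data. Members of the comparison, the 43 gene lists and the rules were chosen with earlier results of these data known. Genes named in the text are the hormone and CGRP list, the 10 largest fold changes per tissue among called genes that do not overlap (mean of at least 10 CPM), the 10 highest FPKM per tissue without mitochondrial genes, called transcription factors, and in each list the defining, highest and most changed members and those called against its direction. Others were chosen after their values were seen, to show paralogues, ligands or receptors beside these. Some genes of these lists enter the counts and medians and are not reported here by name. Of 2 list genes whose symbol stands on more than 1 entry, the entry with the higher total was used.

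Alternatives were DESeq2 1.42.0, library totals or RLE size factors in place of TMM, no filter, limma 3.58.1 on log2(FPKM + 1) and log2(FPKM + 0.1), all entries of the table, only genes in both deposited tables, 1 fit of 12 libraries, a replicate block, a fold of 4, a test against a fold of 2, and leaving out each library. Leaving out gubernaculum replicate 1 and testis replicate 3 together was added after seeing the data.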

Additional observations from a re-analysis of the deposited data

Results flagged for a closer look

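The difference between gubernaculum and testis was itself different in WT and INSL3-KI mice for 8 of the 10 genes with the largest fold change on the gubernaculum side, by the interaction term of edgeR's fit of 12 libraries. On the log2 scale the WT contrast was higher by 10.52 for Tnnc2, 11.48 for Actc1, 10.17 for Myl1, 13.58 for Csrp3, 12.03 for Myh8, 12.83 for Atp1b4, 12.16 for Myom2 and 11.16 for Hfe2, with adjusted p from 9.24e-07 to 0.00337. In INSL3-KI gubernaculum Tnnc2 had 8.37, 10.7 and 8.86 CPM and Myl1 10.3, 0.936 and 2.27 CPM, and the other 6 genes were also low. WT testis libraries held at most 4 counts of Csrp3 and Hfe2, at most 5 of Tnnc2 and Atp1b4, and 11, 0 and 4 of Myom2. The size of the difference for each of these genes thus depends on the prior count of the fit. White adipocyte, smooth muscle and duct epithelium lists also moved, from WT medians of -1.02, -1.56 and -3.66 to 4.82, 3.98 and 3.71 in INSL3-KI mice, and their part in the difference was not tested. Without single libraries the adjusted p for Csrp3 reached 1, and the other 7 remained under 0.01.

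The loci outside the annotation, which the comparisons leave out, also differed between the tissues. Of 2239 tested, 311 were called higher in gubernaculum and 305 higher in testis by the same test and thresholds.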

How the results depend on the processing

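The number of genes higher in gubernaculum was 2211 and that higher in testis 2236. Leaving out single libraries gave 1607 to 2416 and 1802 to 2213, with the lowest numbers without testis replicate 2. Gubernaculum calls were fewer with limma on log2(FPKM + 1), 1188, with a fold of at least 4, 1173, and with a test against a fold of 2, 1142. Testis calls were 3642 with library totals, 3883 with limma on log2(FPKM + 0.1), 1181 with a fold of at least 4 and 1206 with a test against a fold of 2. Of the genes detected in 1 tissue, allowing 10 counts in the other gave 100 in gubernaculum and 258 in testis, a minimum of 5 CPM gave 31 in testis, and leaving out single libraries gave 46 to 67 and 118 to 161. Leaving out single libraries gave 2512 to 3218 and 2198 to 2802 calls in INSL3-KI mice and 1183 to 1589 and 1647 to 2288 of the interaction. Some INSL3-KI and interaction counts under DESeq2, library totals or the replicate block lay outside these ranges. Each of these was within 1.5 times the number reported. The interaction for Rxfp2 ran from -0.14 to 2.73 over single libraries left out, and reversed without INSL3-KI testis replicate 2 alone.

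The labels number replicates 1 to 3 in both tissues without tying a number to an animal, so the numbers were not taken as pairs. Deviations of same-numbered libraries correlated at 0.037, -0.023 and 0.057, which cannot show whether such libraries share an animal. With the replicate number as a block, 1980 genes were called higher in gubernaculum and 1885 higher in testis.

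With 3 libraries a tissue and testis libraries that differ in connective tissue, fat and duct genes, counts over those lists are the least firm. Genes under about 1 CPM rest on few counts, and a bound against a tissue at 0 covers counting error only.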
